A study of Mus musculus with 24 samples.

Results

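The 45 genes described here encode the actin cytoskeleton and its links to the substrate: actins and non-muscle myosin II, tropomyosins and other filament-binding proteins, adhesion plaque proteins, the Arp2/3 complex, regulators of actin monomers and filament ends, bundling proteins, and the transcription factor SRF. They were taken from the deposited count table by gene symbol, and all 45 were found among its 11590 genes. The list was chosen with earlier results of these data known. Counts of members beside shares of all genes therefore describe the list and are no test. The RNA-seq libraries came from bone marrow-derived macrophages (BMDM) of male mice on a C57BL/6 background, grown with M-CSF, the cytokine that drives macrophage differentiation. Cells were wild-type (WT) or deficient in GPR35 (KO), a G protein-coupled receptor, and on day 7 they were left untreated or received 10 µM lysophosphatidic acid (LPA) or 10 ng/mL lipopolysaccharide (LPS) for 4 h. Each of the 6 combinations had 4 replicates, which gave 24 libraries. The labels do not say how the deficient mice were made, how old the animals were or whether replicates were separate animals, so p-values measure the spread between these samples, which may be technical. In bulk RNA, fewer cells of a type and less RNA per cell cannot be told apart.

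Actin cycles between monomers and filaments. The Arp2/3 complex starts branched filaments, Ena/VASP proteins and formins elongate them, cofilin and WDR1 take them apart, and profilin returns monomers to growing ends. Macrophages use these filaments to crawl, to adhere through integrin-linked plaques and podosomes, and to engulf particles. SRF binds a DNA element called the CArG box, and its MRTF cofactors are held back by free actin monomers, so that actin genes are themselves among the known targets of actin dynamics.

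The CArG box was looked for in the 250 bases upstream of the RefSeq gene starts (GRCm38.p6). It is its own reverse complement, so each match lies on both strands. It was present in 6 of the 38 members with such a window (15.8%), against 439 of 27025 genes (1.62%), and in 482 of 32851 windows of that length (1.47%). The 27025 are all genes with a window and not only those of the count table. Because actin genes are known SRF targets and the list was chosen as actin genes, these shares only describe the list and are no test. Actb, Carmil1, Coro1b, Diaph1, Marcks, Thbs1 and Twf2 had no window. The 6 stretches are shown because they mark the members that carry the element of the SRF protein, itself a member. They lie at chr11:120348541-120348620 (minus strand, Actg1), chr6:113377863-113377907 (plus strand, Arpc4), chr10:79988509-79988588 (plus strand, Cnn2), chr10:128493040-128493069 (minus strand, Myl6), chr17:46556215-46556244 (minus strand, Srf) and chr14:20929148-20929215 (plus strand, Vcl). Capitals mark the CArG box. The Myl6 and Srf stretches lie inside the gene's own RefSeq model, upstream of an internal start.
Actg1: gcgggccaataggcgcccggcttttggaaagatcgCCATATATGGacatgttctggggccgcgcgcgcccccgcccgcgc
Arpc4: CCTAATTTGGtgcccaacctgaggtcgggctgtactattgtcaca
Cnn2: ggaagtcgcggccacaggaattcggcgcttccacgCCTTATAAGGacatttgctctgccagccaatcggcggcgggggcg
Myl6: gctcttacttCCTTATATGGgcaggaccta
Srf: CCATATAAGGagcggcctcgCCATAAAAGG
Vcl: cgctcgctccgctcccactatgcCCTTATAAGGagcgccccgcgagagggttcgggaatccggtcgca
The Srf window holds the box at 2 places, which start 82 and 62 bases before that internal start. The others start 90 (Actg1), 250 (Arpc4), 56 (Cnn2), 50 (Myl6, from its internal start) and 227 (Vcl) bases before the RefSeq start of their window. A match describes these letters and says nothing of binding.

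Levels are CPM, counts scaled to a library of 1000000 counts with TMM factors and not by gene length, so they compare a gene across libraries and not different genes. WT libraries held 31985119 to 46697165 counts and KO libraries 15167683 to 21461866, and the WT libraries ran on 2 sequencing lanes and the KO libraries on 1, so depth and lane cannot be told apart from genotype. The members' smallest count in any library was 11. Macrophage markers summed to between 30849 and 45049 CPM in every library, and none of the lymphoid markers was measured. The Gpr35 transcript itself was low, with 107 to 133 counts in untreated WT libraries and 1 to 5 in untreated KO libraries.

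Together the 45 genes drew 2.46 ± 0.06% of all counts in untreated WT cells (mean ± SD, n = 4, in libraries 1 to 4 2.52%, 2.48%, 2.44% and 2.38%). With LPA in WT cells the share was 3.09 ± 0.2% (3.25%, 3.26%, 2.84% and 3.02%), and with LPS it was 4.1 ± 0.06% (4.16%, 4.1%, 4.1% and 4.02%). These 3 WT groups did not overlap. In KO cells the share was 2.46 ± 0.08% untreated (2.39%, 2.53%, 2.38% and 2.52%), 2.55 ± 0.06% with LPA (2.59%, 2.57%, 2.46% and 2.6%) and 3.94 ± 0.06% with LPS (3.93%, 3.98%, 3.85% and 3.99%). The untreated and LPA libraries of KO cells overlapped, and both lay below the KO libraries with LPS. The share uses raw totals and no scaling factor.

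**Figure D1:**
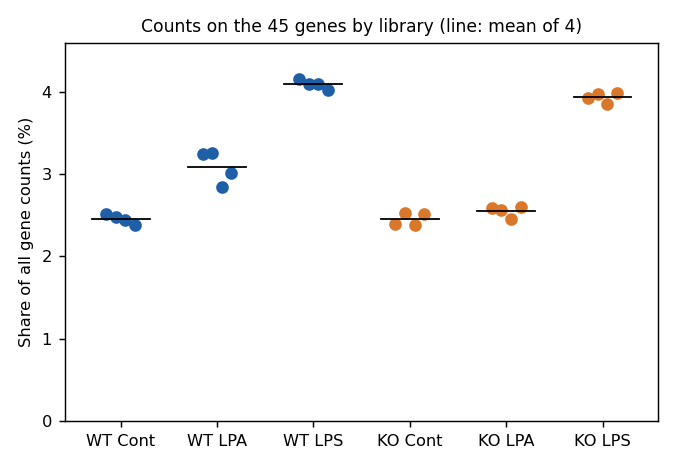
Share of all gene counts that fell on the 45 actin cytoskeleton and adhesion genes (percent, y axis) in each of the 24 libraries (points) by group (x axis), with the mean of 4 as a line. WT libraries with LPA lie at 2.84% to 3.26% and KO libraries with LPA at 2.46% to 2.6%, and with LPS the groups lie at 4.02% to 4.16% (WT) and 3.85% to 3.99% (KO).

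Among the members, the largest rises with LPA in WT cells were those of Fscn1, Marcksl1, Carmil1, Tpm4 and Vasp. By edgeR's quasi-likelihood test 26 of the 45 members rose and none fell (Benjamini-Hochberg adjusted p below 0.05 over all genes), against 44.6% of all genes called, 23.5% higher and 21.1% lower. The class counts below stand against the same shares. The adhesion plaque (2 of 5) and Arp2/3 with coronins (4 of 10) each had 40% called, all higher. The median member changed by 0.24 on the log2 scale and the median of all genes by -0.01. Scaled by library totals instead, 23 members rose and 1 fell, and the split of all genes moved to 2077 higher and 3082 lower. In 19 members all 4 LPA libraries lay above all 4 untreated ones, and in 1, Myl12b, they lay below, against 34.9% of all genes that did not overlap in either direction. Markers of other cell types moved both ways in the same libraries. The 3 of 5 endothelial markers measured summed to 18.7 to 22.2 CPM untreated and 30.8 to 37.7 CPM with LPA, with Cdh5 (1.63) and Kdr (1.12) higher and Pecam1 at -0.25 and not called. The 3 of 8 megakaryocyte and platelet markers summed to 77.6 to 97 CPM and 120.5 to 191 CPM, with Pf4 (0.92) and Ppbp (1.66) higher and Treml1 (-0.45) lower. Kmo, the 1 of 6 dendritic cell markers measured, went from 2.07 to 3.74 CPM down to 0.569 to 1.39 CPM (-1.82). The 9 of 10 neutrophil markers summed to 264 to 481 CPM and 221 to 267 CPM, with Ltf (-0.64) the one called, and none of the 5 of 12 fibroblast and stromal markers was called. Their part in the result was not tested.

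Among the bundling and membrane-linking proteins, 3 of 4 rose. Marcksl1 encodes a MARCKS-family protein that binds actin and membrane phospholipids (chr4:129513581-129515981). It stood at 259, 285, 279 and 242 CPM in untreated WT libraries and at 631, 759, 521 and 745 CPM with LPA. The ranges did not overlap, and the log2 change was 1.32 ± 0.12 (SE, edgeR adjusted p = 6.9e-08). Lcp1 encodes L-plastin, the actin bundler of leukocytes, and its WT libraries went from 1849, 1779, 1728 and 1655 CPM to 2539.8, 2698, 2224 and 2529 CPM (0.51 ± 0.06). Marcks, the relative of Marcksl1, gave -0.03 ± 0.05 and was not called. Fscn1, which encodes the bundler fascin and was picked for its values, was low at 1.53, 2.02, 1.44 and 1.8 CPM and reached 2.73, 5.41, 3.76 and 5.87 CPM (1.37 ± 0.3, edgeR adjusted p = 0.0012).

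Of the filament elongation factors, Vasp and Diaph1 rose. Vasp encodes the founding Ena/VASP protein (chr7:19256929-19271854), and its WT libraries lay at 335, 324, 299.7 and 313 CPM untreated and at 615, 681, 485 and 658 CPM with LPA. The groups did not overlap, and the log2 change was 0.94 ± 0.09 (edgeR adjusted p = 2.3e-07). Diaph1 encodes the formin mDia1, and it went from 201, 201, 212 and 209.6 CPM to 272, 268, 243 and 231 CPM (0.3 ± 0.05, edgeR adjusted p = 6.6e-05). Evl, the other Ena/VASP gene, gave 0.25 ± 0.11 with an edgeR adjusted p of 0.084, and passed at 0.037 in the fit with the replicate number as a term.

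Tropomyosins wrap along filaments, and the 3 genes behaved unequally. Tpm4 (chr8:72135288-72153142) stood at 199, 209, 204 and 184 CPM untreated and at 467, 534, 355 and 385 CPM with LPA, with no overlap and a log2 change of 1.13 ± 0.09 (edgeR adjusted p = 1.5e-08). Tpm3 rose by 0.25 ± 0.06, and Tpm1 was not called at 0.06 ± 0.06, with 57.8, 55.3, 53.7 and 55.1 CPM against 60.8, 58.4, 52.5 and 58.8 CPM. The filament crosslinker Flna (chrX:74223461-74249854) rose by 0.54 ± 0.09, from 1883, 1656, 1565 and 1535 CPM to 2584, 2597, 2165 and 2339.7 CPM. Calponin 2 (Cnn2) rose by 0.68 ± 0.25 with an edgeR adjusted p of 0.033, and lost its call in 7 of 16 alternative settings. The alpha-actinins Actn1 (0.26 ± 0.15) and Actn4 (0.08 ± 0.07) were not called, and Actn1 passed at an edgeR adjusted p of 0.0028 once the replicate number was a term.

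Both cytoplasmic actins rose. Actb (beta-actin, chr5:142903115-142907976) lay at 4255, 4108, 3973 and 3856 CPM untreated and at 6694, 6512, 5011 and 5752 CPM with LPA (0.57 ± 0.09, edgeR adjusted p = 3.8e-05). Actg1 (gamma-actin, chr11:120345687-120348495) lay at 708, 703, 721 and 681 CPM and then at 1187, 1172, 928 and 903 CPM (0.57 ± 0.08, edgeR adjusted p = 6.2e-06). Neither gene's groups overlapped. Of the 51-base stretches of Actg1 transcripts, 45.5% also occur in other genes, 41% in Gm12715 and 1.1% in Actb, so its level depends on how shared reads were counted. The myosin II genes Myh9 (0.43 ± 0.06), Myl6 (0.21 ± 0.06) and Myl12a (0.52 ± 0.08) rose, and Myl12b gave -0.11 ± 0.05 and was not called. Myl12a and Myl12b share 18.7% and 20.6% of their stretches with each other.

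In the adhesion plaque, which ties filaments to integrins, vinculin stood out among 5 genes. Vcl (chr14:20929383-21033676) lay at 26.2, 29.4, 28.8 and 26 CPM untreated and at 49.3, 52.6, 40.8 and 37.3 CPM with LPA, with no overlap (0.71 ± 0.09, edgeR adjusted p = 4.3e-06). It overlaps Ap3m1, with which it shares 38.2% of its stretches. The talin gene Tln1 rose by 0.15 ± 0.06 with an edgeR adjusted p of 0.044, and its call was lost in 9 of 16 alternative settings. Zyxin (Zyx, 0.05 ± 0.14), kindlin-3 (Fermt3, 0.02 ± 0.05) and the matrix glycoprotein thrombospondin-1 (Thbs1, 0.22 ± 0.36) were not called.

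The Arp2/3 complex changed unevenly, with 4 of its 7 genes called. Actr2 encodes the ARP2 subunit and went from 655, 602, 585 and 589 CPM to 847, 852, 737 and 769 CPM (0.4 ± 0.07, edgeR adjusted p = 8.8e-05). Arpc5 (0.24 ± 0.05), Arpc2 (0.22 ± 0.06) and Arpc4 (0.15 ± 0.04) also rose. Actr3 gave 0.17 ± 0.08 (edgeR adjusted p = 0.073, and 0.034 with the replicate term), and Arpc3 gave 0.02 ± 0.05, with 344, 361, 358 and 341 CPM against 355, 363, 349 and 352 CPM. None of the coronin genes Coro1a, Coro1b and Coro1c was called, although Coro1a passed with the replicate term (0.15 ± 0.05, edgeR adjusted p = 0.032).

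Among the 9 regulators of monomers and filament ends, 5 rose. Wdr1, whose product helps cofilin dismantle filaments, went from 463, 442, 425 and 424 CPM to 658, 684, 542 and 594 CPM (0.5 ± 0.06, edgeR adjusted p = 4e-06). Profilin 1 (Pfn1, 0.42 ± 0.09), cofilin 1 (Cfl1, 0.31 ± 0.08) and Cap1 (0.23 ± 0.06), which recharges actin monomers, rose as well. Carmil1, which encodes a regulator of capping protein (chr13:24012481-24280802), stood at 6.26, 6.78, 8.66 and 7.69 CPM and then at 17.3, 20.4, 16.1 and 13.1 CPM (1.19 ± 0.16, edgeR adjusted p = 7e-06). Twf1, Twf2, Capg and Capzb were not called, although Capg passed with the replicate term (0.24 ± 0.08, edgeR adjusted p = 0.02). Srf (chr17:46546838-46558267) rose by 0.37 ± 0.07, from 30.4, 29, 29.9 and 25.7 CPM to 42.7, 40, 31.9 and 33.9 CPM (edgeR adjusted p = 0.00035).

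Set against the upstream sequences, all 6 members with a CArG box in the window rose with LPA in WT cells (median log2 change 0.47), as did 17 of the 32 whose window held none (median 0.24) and 3 of the 7 with no window. In KO cells 0 of those 6, 1 of those 32 and 2 of those 7 rose. The LPA effect was called lower in KO for 3 of the 6, 17 of the 32 and 1 of the 7. Over all genes 23.5% were called higher with LPA in WT, 1.56% higher in KO and 15.8% with a lower effect in KO. Calls among other genes with the box were not counted, and the 6 were not tested as a group.

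**Figure D2:**
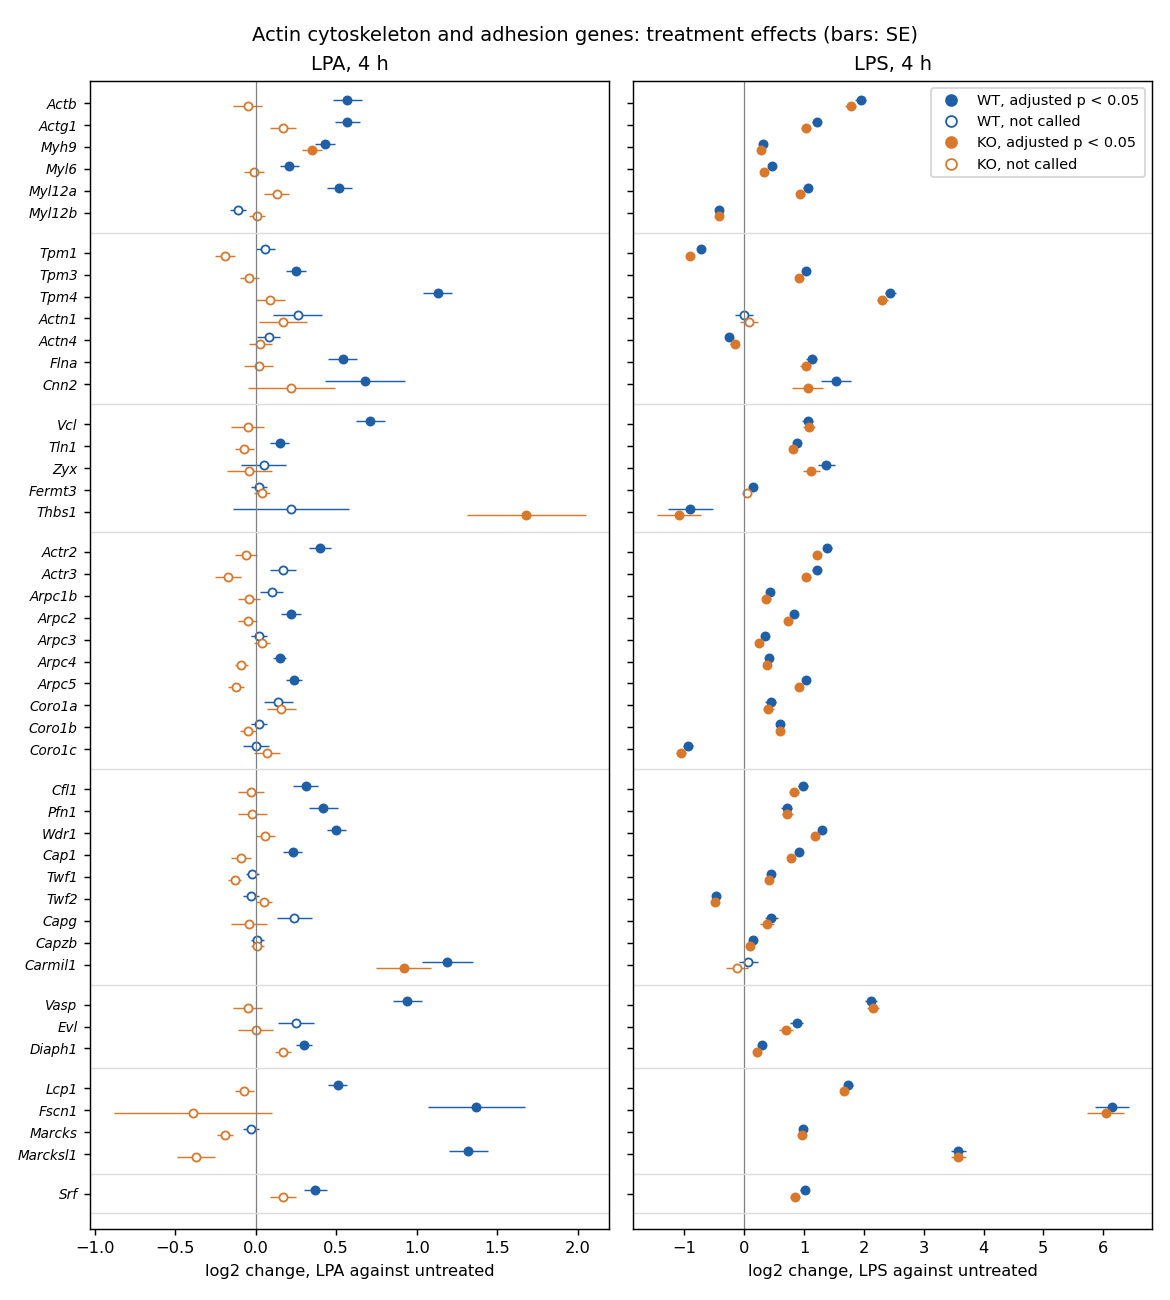
Log2 change against untreated cells (x axis) with LPA (left) and LPS (right) for the 45 genes (y axis, grouped by role from actins at the top to Srf at the bottom) in WT (blue) and KO (orange), with SE bars and filled points for an adjusted p below 0.05. With LPA 26 WT points and 3 KO points are filled; with LPS 43 and 42 are filled, and under scaling by library totals 12 LPS values in each genotype change sign.

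In KO cells LPA changed 3 members by the same edgeR test: Myh9, Carmil1 and Thbs1, all higher, against 2.62% of all genes called (1.56% higher, 1.06% lower). The median member changed by -0.02. An unadjusted p below 0.05 was found for 12 members, but all genes were not counted at that threshold, so this number has no share beside it. In 4 members (Myh9, Carmil1, Diaph1 and Srf) all LPA libraries lay above the untreated ones, and in 3 (Arpc4, Twf1 and Marcks) below, against 8.84% of all genes. With the replicate number as a term, 5 members were called, the further 2 being lower: Tpm1 (-0.19 ± 0.05, edgeR adjusted p = 0.042) and Marcks (-0.19 ± 0.05, edgeR adjusted p = 0.039).

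Myh9, the heavy chain of non-muscle myosin IIA (chr15:77760585-77842175), rose in both genotypes. Its WT libraries went from 586, 595, 598 and 589 CPM to 875, 844, 736 and 728 CPM. KO libraries went from 577, 541, 546 and 601 CPM to 733, 706, 686 and 759 CPM (0.35 ± 0.06, edgeR adjusted p = 0.0012). The difference of the LPA effects, KO minus WT, was -0.08 ± 0.08 with a 95% interval of -0.25 to 0.1. Carmil1 rose in KO cells from 7.66, 6.92, 5.64 and 8.41 CPM to 14.9, 11.9, 12.9 and 14.7 CPM (0.92 ± 0.17, edgeR adjusted p = 0.0025), and the effects differed by -0.26 ± 0.23 (95% interval -0.75 to 0.22). For Diaph1 and Srf the KO changes were 0.17 ± 0.05 (edgeR adjusted p = 0.066) and 0.17 ± 0.08 (0.33), and the differences from WT, -0.13 (95% interval -0.27 to 0.02) and -0.2 (-0.42 to 0.02), were not called.

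The LPA effect differed between genotypes in 22 members by edgeR's interaction term, 21 of them lower in KO and 1 higher, against 28.5% of all genes (12.7% higher, 15.8% lower). Scaled by library totals the members split into 1 higher and 20 lower, and all genes into 1981 higher and 1325 lower. The classes with called members were the actins and myosin II (Actb, Actg1, Myl12a), the filament binders (Tpm1, Tpm3, Tpm4, Flna), the plaque (Vcl and Thbs1), Arp2/3 (Actr2, Actr3, Arpc2, Arpc4, Arpc5), the monomer and end regulators (Cfl1, Pfn1, Wdr1, Cap1), Vasp, and the bundlers (Lcp1, Fscn1, Marcksl1).

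Marcksl1 in KO libraries stood at 223, 203, 295 and 274 CPM untreated and at 191, 156, 209 and 212 CPM with LPA. These groups overlap, and the change of -0.37 ± 0.12 was not called (edgeR adjusted p = 0.11). The difference from WT was -1.69 ± 0.17 (edgeR adjusted p = 4.7e-06). Tpm4 in KO libraries stood at 207, 222, 199 and 213 CPM and then at 228, 222, 219.5 and 225 CPM, a change of 0.09 ± 0.09, and the difference from WT was -1.04 ± 0.13 (edgeR adjusted p = 1.3e-05). Every KO library with LPA was below every WT library with LPA for both genes.

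Vasp in KO libraries lay at 265, 309, 358 and 299 CPM untreated and at 277, 279, 319.9 and 313 CPM with LPA. The change was -0.05 ± 0.09, and the genotypes differed by -0.99 ± 0.13 (edgeR adjusted p = 3.5e-05). Vcl gave 29.8, 28.3, 26.1 and 30.6 CPM untreated and 27.8, 27.1, 27.1 and 28.6 CPM with LPA in KO cells, and a difference of -0.76 ± 0.13 (edgeR adjusted p = 0.00039). For both genes all KO libraries with LPA lay within the range of the untreated KO libraries.

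Beta-actin in KO libraries was 3503, 4105, 3523 and 4186 CPM untreated and 3721, 3959.7, 3326 and 3809.7 CPM with LPA, which overlap. The Actb difference from WT was -0.61 ± 0.12 (edgeR adjusted p = 0.0014). Actg1 gave 714, 748, 659 and 768 CPM and then 848, 799, 765 and 828 CPM in KO cells, a change of 0.17 ± 0.08 that was not called (edgeR adjusted p = 0.36), and a difference of -0.41 ± 0.11 (edgeR adjusted p = 0.0078). Smaller differences were called for Lcp1 (-0.58 ± 0.09), Flna (-0.53 ± 0.13), Actr2 (-0.46 ± 0.1), Wdr1 (-0.44 ± 0.09) and Arpc5 (-0.36 ± 0.07). KO libraries with LPA held 1659, 1764, 1598 and 1689 CPM of Lcp1, all below the 4 WT libraries with LPA. Of the 22 calls, 15 were kept in every alternative setting, and Actr3, Arpc2, Cfl1, Fscn1, Thbs1, Tpm1 and Tpm3 were not. The fit with the replicate term also called Myl6 (-0.21 ± 0.08, edgeR adjusted p = 0.045) and Tln1 (-0.22 ± 0.07, edgeR adjusted p = 0.018).

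**Figure D3:**
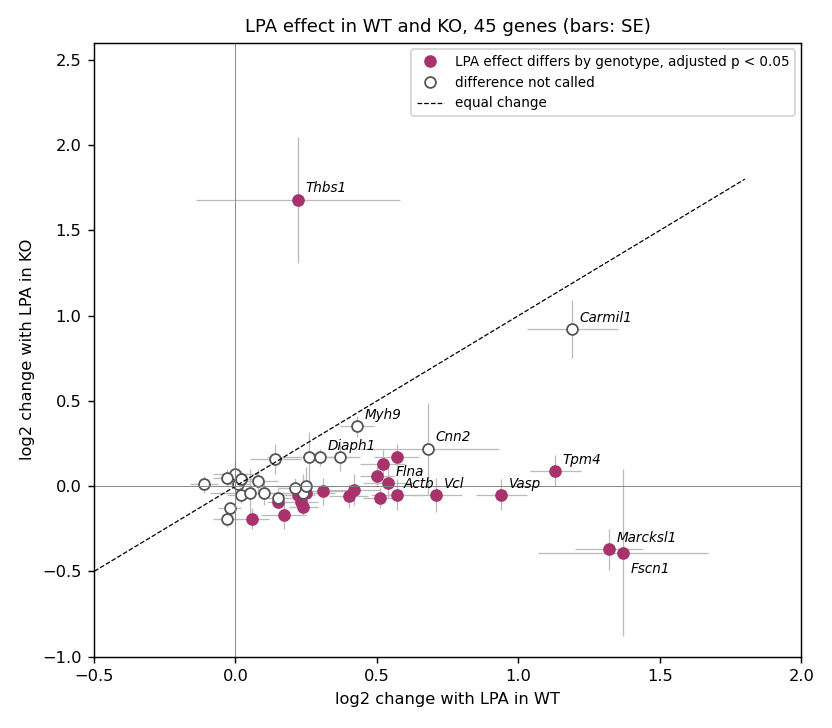
Log2 change with LPA in WT (x axis) against KO (y axis) for the 45 genes, with SE bars, filled points where the difference passed an adjusted p below 0.05, and a dashed line of equal change. Marcksl1 (1.32 in WT, -0.37 in KO), Tpm4, Vasp and Vcl lie to the right near or below the zero line, Myh9 and Carmil1 lie near the dashed line, and Thbs1 (0.22 in WT, 1.68 in KO) lies above it.

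Thbs1 (chr2:118111876-118127133) was the member with the higher LPA effect in KO cells, and untreated KO libraries varied by 52.4% of their mean. WT libraries gave 198, 311, 439 and 349.9 CPM untreated and 339.6, 383, 566 and 226 CPM with LPA, which overlap. KO libraries gave 541, 149.8, 239 and 436 CPM untreated and 1604, 502, 1042 and 1224 CPM with LPA. The lowest KO library with LPA, at 502 CPM, lay within 541 CPM, the top of the untreated ones, so these groups overlapped as well. The KO change was 1.68 ± 0.37 (edgeR adjusted p = 0.014), and the difference from WT was 1.45 ± 0.51 (edgeR adjusted p = 0.04, 95% interval 0.38 to 2.53).

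The Thbs1 call in KO cells was lost without KO LPA replicate 1 (1.43, edgeR adjusted p = 0.06), without KO untreated replicate 3 (1.54, 0.062) and in a fit of only the groups compared (1.69, 0.18). With the replicate number as a term it was 1.72 ± 0.26 (edgeR adjusted p = 0.0011). The interaction call was lost in 13 of 24 alternatives. Fibroblast and stromal markers, of which 5 of 12 were measured (Acta2, Col1a1, Col1a2, Pdgfrb and Sparc), summed to 2.65 to 4.1 CPM in untreated KO libraries and to 5.1, 8.31, 14.5 and 6.52 CPM in the KO libraries with LPA. Megakaryocyte and platelet markers, 3 of 8 measured, summed to 86.3 to 104 CPM and to 94 to 112 CPM. None of the markers in these lists was called with LPA in KO cells. Among the endothelial markers Pecam1 (1.29) was called higher and Kdr (-0.72) lower. The part of any of these markers in the Thbs1 result was not tested.

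LPS moved nearly all of these genes in both genotypes. In WT cells 37 rose and 6 fell, against 84.2% of all genes called (40.6% higher, 43.6% lower), and in KO cells 36 rose and 6 fell, against 82.3% (39.3% and 43%). In WT cells 37 members lay wholly above and 5 wholly below the untreated libraries (80.8% of all genes did not overlap), and in KO cells 36 and 4 (74.7%). Directions depended on scaling. With library totals instead of TMM the median of all genes went from -0.04 to -0.59 in WT and from -0.05 to -0.55 in KO. Members then split into 24 higher and 15 lower in WT, where all genes split into 2387 higher and 7847 lower. In KO the members split into 23 higher and 15 lower, and all genes into 2428 and 7627. The members' median was 0.88 in WT and 0.73 in KO with TMM, and 0.32 and 0.24 with library totals. LPS and LPA share the untreated libraries of each genotype, so their values are only set side by side.

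Bundlers led the rises with LPS. Fscn1 went from 1.53, 2.02, 1.44 and 1.8 CPM to 182, 117, 96.3 and 90.1 CPM in WT libraries (6.15 ± 0.28, edgeR adjusted p = 1.9e-14). In KO libraries it went from 1.07, 0.74, 2.23 and 2.21 CPM to 119.6, 96.3, 109 and 97.1 CPM (6.04 ± 0.31). Marcksl1 reached 3227, 3130.2, 3328 and 3023 CPM in WT and 3080.3, 3150.4, 3029 and 2629 CPM in KO, a change of 3.58 ± 0.13 in each genotype (WT edgeR adjusted p = 6.3e-17). Both genes had every LPS library far above every untreated one. Lcp1 rose by 1.74 ± 0.07 in WT and 1.67 ± 0.07 in KO, and Marcks, which was not called with LPA in WT cells, rose by 0.99 and 0.96.

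Tpm4 rose to 1096, 1084, 1128 and 1025 CPM in WT (2.44 ± 0.09) and to 1083, 1143, 999.6 and 951 CPM in KO (2.31 ± 0.09). Vasp rose to 1525, 1348, 1342 and 1307 CPM in WT (2.12 ± 0.1) and to 1385, 1441, 1434 and 1256 CPM in KO (2.16 ± 0.1). In each gene the WT and KO libraries with LPS overlapped. Actb reached 15289, 15584, 16478 and 15318 CPM in WT (1.95 ± 0.09) and 12992, 14577, 11872 and 12989 CPM in KO (1.78 ± 0.09), and its share of all counts was 1.184% to 1.218% against 0.983% to 1.133%. Vcl reached 53.9, 54, 67.8 and 55 CPM in WT and 62, 67.9, 57.9 and 57.6 CPM in KO (1.06 ± 0.09 and 1.09 ± 0.1). Zyx, which was not called with LPA in WT cells, rose by 1.37 in WT and 1.12 in KO.

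The 6 members lower with LPS in both genotypes under TMM were Myl12b, Tpm1, Actn4, Thbs1, Coro1c and Twf2. Coro1c, which encodes a coronin that remodels Arp2/3 branches, went from 336 ± 17.1 to 176 ± 10.4 CPM in WT (mean ± SD, n = 4) and from 326 ± 30.4 to 156 ± 11.6 CPM in KO. Tpm1 fell by 0.73 ± 0.06 in WT, to 32.3, 33.2, 31.9 and 36.2 CPM, and by 0.91 ± 0.07 in KO, to 31.8, 31.6, 30.9 and 32.7 CPM. Tpm1 and Tpm4 thus moved in opposite directions with TMM and with library totals. Thbs1 fell to 134, 169, 219.8 and 173 CPM in WT (-0.9 ± 0.37, edgeR adjusted p = 0.028) and to 165, 163, 145 and 169.8 CPM in KO (-1.09 ± 0.37, edgeR adjusted p = 0.011). Its WT call was lost without any 1 of WT LPS replicates 1, 2 and 4 or untreated replicates 3 and 4, and its KO call without untreated KO replicate 1.

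The direction of the smaller LPS effects rested on the scaling. Myh9 was 0.31 with TMM and -0.25 with library totals in WT cells, Diaph1 0.3 and -0.26, and Arpc3 0.35 and -0.21. Carmil1, which LPA raised in both genotypes, was not called with LPS under TMM (0.07 ± 0.16 in WT, -0.12 ± 0.18 in KO). Under library totals it was called lower in WT. Its LPS libraries read 5.29, 6.88, 10.6 and 7.99 CPM in WT and 6.28, 6.57, 6.45 and 7.06 CPM in KO. Among members with larger changes, Actr2 (1.39), Wdr1 (1.3), Actg1 (1.21), Actr3 (1.21), Flna (1.13) and Srf (1.01) kept their sign under both scalings. Marker sums moved with LPS as well. Endothelial sums were 160.4 to 185 CPM in WT and 113 to 157 CPM in KO with LPS, against 18.7 to 22.2 CPM and 12.1 to 23.6 CPM untreated, and here Kdr and Cdh5 were higher and Pecam1 lower in both genotypes. Megakaryocyte and platelet sums were 159 to 186 CPM in WT and 186 to 214 CPM in KO, with Pf4 and Ppbp higher and Treml1 lower. Fibroblast and stromal sums were 10.5 to 27.2 CPM in WT and 9.73 to 12 CPM in KO, where Pdgfrb was the one called marker of the list in each genotype. Their part in the result was not tested.

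**Figure D4:**
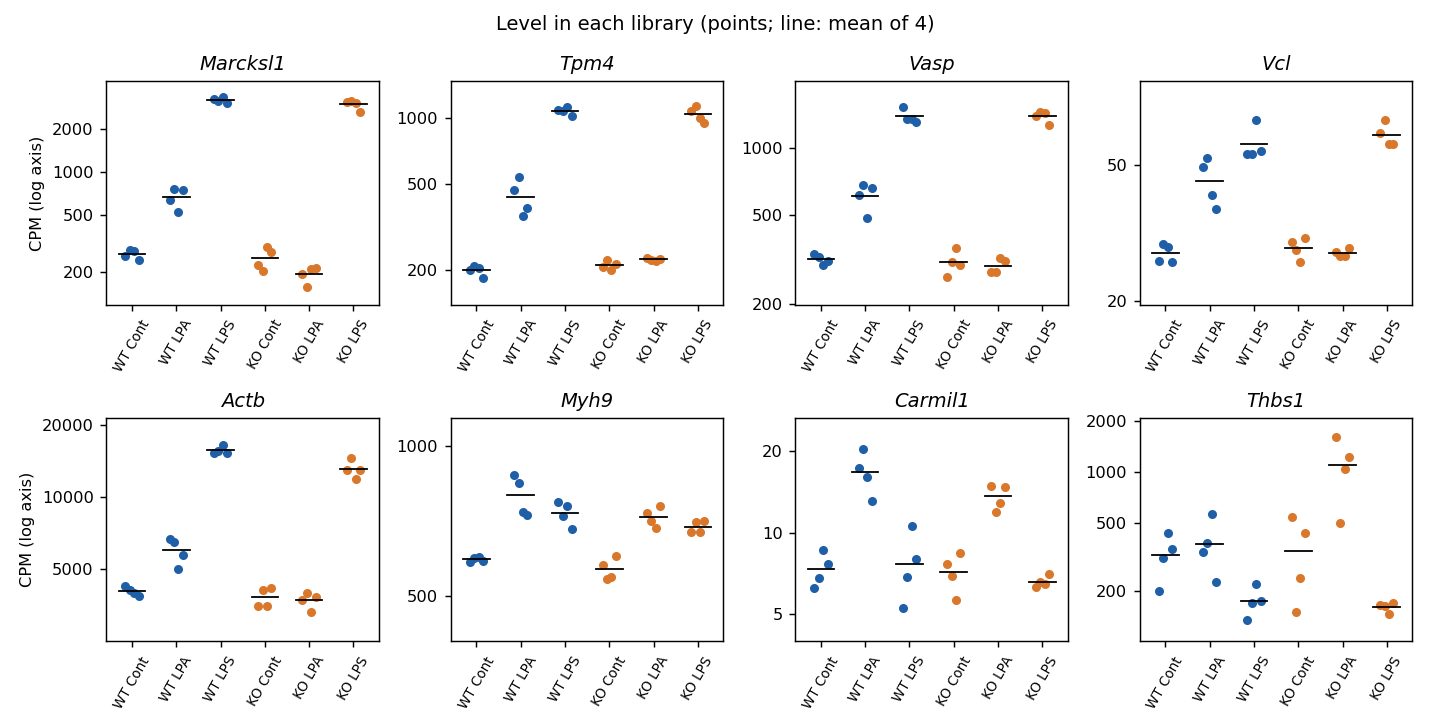
Level in CPM (y axis, log scale) in each of the 24 libraries (points, WT blue and KO orange) by group (x axis), with the mean of 4 as a line, for Marcksl1, Tpm4, Vasp, Vcl, Actb, Myh9, Carmil1 and Thbs1. In the first 5 panels LPA libraries lie above untreated ones in WT only, whereas Myh9 and Carmil1 rise in both genotypes and Thbs1 reaches 502 to 1604 CPM in KO libraries with LPA.

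The LPS effect was not called different between genotypes for any member by edgeR, nor for any of the 11590 genes (0%), and 0 members had an unadjusted p below 0.05. DESeq2 called 17 genes and 0 members. The estimates of KO minus WT ran from -0.48 to 0.1, and for 38 of the 45 members the 95% interval lay within 0.5 log2 units of 0. The wider intervals were those of Actn1, Cnn2, Zyx, Thbs1, Carmil1, Evl and Fscn1. Estimates were below 0 in 38 of the 45, and signs over all genes were not counted. The median was -0.09 in members and -0.01 in all genes with TMM, and -0.03 and 0.05 with library totals.

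Between untreated KO and WT cells none of the members was called by edgeR (0.00863% of all genes, Gpr35 alone), with 0 members at an unadjusted p below 0.05 and 0 called by DESeq2. Estimates ran from -0.15 to 0.2, and 42 intervals lay within 0.5 log2 units of 0, Cnn2, Thbs1 and Fscn1 being wider. Coro1b was the only member whose KO libraries all lay below the WT libraries, against 2.34% of all genes that did not overlap.

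With LPA present, 29 members differed between KO and WT, 2 higher (Thbs1 and Myl12b) and 27 lower, against 50.3% of all genes (24.4% higher, 25.9% lower). Scaled by library totals the members split into 5 higher and 22 lower, and all genes into 4196 higher and 2026 lower with a median of 0.11. The largest differences among the lower members were in Fscn1 (-1.86 ± 0.38), Marcksl1 (-1.79 ± 0.12), Vasp (-1.04 ± 0.09) and Tpm4 (-0.96 ± 0.09). In 18 members every KO library lay below every WT library and in 1 above, against 36.4% of all genes. Thbs1 was higher by 1.53 ± 0.37 (edgeR adjusted p = 0.002).

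With LPS present, no member passed by edgeR, against 2.85% of all genes (0.69% higher, 2.16% lower). An unadjusted p below 0.05 was found for 9 members, and all genes were not counted at that threshold. The KO minus WT estimates ran from -0.35 to 0.09 and were negative in 40 of 45, and signs over all genes were not counted. In 11 members (Actb, Actg1, Myl12a, Tpm3, Tln1, Actr2, Actr3, Arpc5, Cfl1, Cap1 and Evl) every KO library lay below every WT library, and in none above, against 9.58% of all genes. Actb was lower by 0.26 log2 units (-0.26 ± 0.09, edgeR adjusted p = 0.11), and DESeq2 called it at an adjusted p of 0.048. A fit of only those groups called Evl, also at 0.048. The median was -0.09 in members and -0.01 in all genes with TMM, and 0 and 0.08 with library totals.

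Other genes of the same pathways, 119 measured in 9 lists, were read for comparison. With LPA in WT cells 51 rose and 14 fell, in KO cells 9 rose and 2 fell, and the effect was higher in KO for 17 and lower for 38. Over all genes those shares were 23.5% higher and 21.1% lower (LPA in WT), 1.56% and 1.06% (LPA in KO) and 12.7% and 15.8% (the difference), and the counts of each list below stand against the same shares. Scaled by library totals, 43 of the 119 rose and 17 fell in WT, and 7 rose and 2 fell in KO. The difference then split into 21 higher and 28 lower. All genes then split into 2077 higher and 3082 lower (WT), 205 and 107 (KO), and 1981 and 1325 (the difference). The crosslinkers and ERM proteins, which fasten filaments to the membrane, rose in 13 of 16 in WT and in 0 of 16 in KO, where 1 fell. Formins rose in 6 of 8 in WT and in 3 of 8 in KO. Daam1 changed by 0.77 ± 0.06 in WT and -0.21 ± 0.06 in KO, where it was not called, and Fmnl3 by 0.21 ± 0.08 and 0.74 ± 0.08.

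Integrins split, with 5 of 12 higher and 3 lower in WT and 2 higher in KO. Itga5, the fibronectin receptor alpha chain, went from 126 ± 8.57 to 287 ± 71.4 CPM in WT (1.19 ± 0.13) and gave 0.22 ± 0.13 in KO, which was not called. The genotypes differed by -0.97 ± 0.18 (edgeR adjusted p = 0.00085). Itgav rose in both (0.62 ± 0.08 and 0.8 ± 0.08), and Itgb5, a beta chain that pairs with it, fell by 0.61 ± 0.08 in WT and rose by 0.34 ± 0.08 in KO (difference 0.94 ± 0.11, edgeR adjusted p = 7.6e-06).

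Of 13 WASP and WAVE genes 4 rose and 1 fell in WT and 1 rose in KO, Abi3 (0.76 ± 0.12). Of 15 measured adhesion adaptors and kinases 7 rose and 2 fell in WT and 1 rose in KO, and of 10 measured myosins 3 rose and 1 fell in WT and none was called in KO.

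Of 12 further monomer, severing and capping genes 3 rose and 3 fell in WT and none was called in KO. Eps8, a capping and bundling protein, went from 10.7 ± 1.95 to 1.75 ± 0.797 CPM in WT (-2.63 ± 0.23) and from 14 ± 2.77 to 8.51 ± 1.21 CPM in KO (-0.72 ± 0.21, edgeR adjusted p = 0.073). Of 22 SRF cofactors and other SRF targets 13 were measured, of which 2 rose and 1 fell in WT and 2 rose in KO. The cofactor gene Mrtfa fell by 0.34 ± 0.1 in WT and was not called in KO (0.15 ± 0.1). With LPS the 119 genes split into 67 higher and 34 lower in WT and 66 higher and 33 lower in KO under TMM, that is 84.9% and 83.2% called, against 84.2% and 82.3% of all genes. Scaled by library totals they split into 47 higher and 58 lower in WT and 45 higher and 54 lower in KO. All genes then split into 2387 higher and 7847 lower in WT and 2428 and 7627 in KO.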

How the data were processed

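Strand-specific polyA libraries were sequenced by the authors as paired reads, and reads were aligned with STAR 2.5.2a to mm10, per the submitters' processing notes. How reads were counted, with which strand setting and on which annotation, is not given in the sources used here. The deposited values are whole-number counts per gene, already filtered on abundance (smallest gene total 170 over 24 libraries), and 9 of 11590 genes have no symbol. All columns were matched to samples by name.

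The counts were fitted with edgeR 4.0.16 in R 4.3.3 (TMM, robust quasi-likelihood, 1 mean per group, 24 libraries, 18 residual degrees of freedom), with p-values adjusted over all genes in each of the comparisons of treatment, genotype and their interaction, and a threshold of 0.05. TMM factors ran from 0.739 to 1.18, the biological coefficient of variation was 9.91%, and no gene was removed by filtering. Chi-square over degrees of freedom ran from 4.13 to 77.5 in the 36 pairs of replicates, none a copy of another. The procedure was tested on simulated data. 95% intervals use the fit's residual degrees of freedom. Alternatives were DESeq2 1.42.0, median-ratio factors, library totals, no filter, at least 50 counts in 4 libraries, only the groups compared, counts thinned to 15167683, each library left out, and a replicate term. That term was the replicate number within each genotype for treatment effects and their difference. For KO against WT it was the number across genotypes, in a fit of only the groups compared. Same-numbered libraries deviated together in untreated and LPA-treated WT cells (r 0.21 to 0.63 over genes). They did so in untreated and LPA-treated KO cells (0.28 to 0.77) and in untreated and LPS-treated KO cells (0.2 to 0.51). In untreated and LPS-treated WT cells r was 0.09 to 0.26, and between genotypes it was -0.58 to 0.25. Within a genotype all 24 same-numbered pairs of libraries, LPA with LPS included, had a positive r (0.07 to 0.77, median 0.27). Differently numbered libraries of a genotype had a median of -0.08 but reached 0.47. Differently numbered libraries of different genotypes reached 0.67. Whether the numbers mark pairs is thus not settled by r, and the labels do not say.

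The 45 members, their classes, the pathway lists and the cell type markers were chosen with earlier results of these data known. Library values are given for 20 genes: up to 2 per class with the smallest adjusted p for LPA in WT, those called for LPA in KO or between untreated genotypes, the 6 with the smallest adjusted p for LPA by genotype, LPS in WT and LPS by genotype, and Actb, Actg1 and Srf. Up to 3 genes per pathway list and comparison were named by smallest adjusted p. Fscn1 was added after its values were seen. Some genes that this rule picked are left out. Upstream sequences, positions and gene models are from RefSeq (GRCm38.p6), and shared 51-base stretches were counted in GENCODE M21 transcripts.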

Additional observations from a re-analysis of the deposited data

Results flagged for a closer look

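In groups of 4 libraries, 2 of 120 held a library set apart from the other 3, where chance gives about 1 in 20: Lcp1 in KO LPS replicate 1 (5811.0 CPM) and Vcl in WT LPS replicate 3 (67.8 CPM).

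The LPA effect differed between genotypes by the interaction test in 22 members. KO minus WT, on the log2 scale, it was lower for Fscn1 (-1.76), Marcksl1 (-1.69), Tpm4 (-1.04), Vasp (-0.99), Vcl (-0.76), Actb (-0.61), Lcp1 (-0.58), Flna (-0.53), Actr2 (-0.46), Wdr1 (-0.44), Pfn1 (-0.44), Actg1 (-0.41), Myl12a (-0.39), Arpc5 (-0.36), Actr3 (-0.34), Cfl1 (-0.34), Cap1 (-0.31), Tpm3 (-0.28), Arpc2 (-0.26), Arpc4 (-0.24) and Tpm1 (-0.24). It was higher for Thbs1 (1.45).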

How the results depend on the processing

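Counts of called members stayed within 1.5 times for LPA in WT (24 to 29 leaving out 1 library, the highest without WT LPA replicate 3), the LPA difference by genotype (15 without WT LPA replicate 2 to 27 without WT LPA replicate 3), LPS in WT (42 to 43), LPS in KO (40 to 42) and KO against WT with LPA (25 to 32). They stayed at 0 for the LPS difference and for KO against WT untreated and with LPS. For LPA in KO leaving out 1 library gave 2 to 4, 2 being without KO LPA replicate 1 or untreated KO replicate 3, and DESeq2 gave 6. For KO against WT with LPS, DESeq2 gave 1 and the fit of only those groups gave 1. A replicate block within each genotype gave 5 members for LPA in KO, 31 for LPA in WT and 24 for the LPA difference. It gave 43 and 42 for LPS in WT and KO. For KO against WT with LPA, a fit of the 2 groups that matched equal numbers across genotypes gave 24. Those libraries did not deviate together (r -0.58 to 0.25), so that match has no basis in the data or the labels. Calls kept under every alternative numbered 22 of 26 (LPA in WT), 2 of 3 (LPA in KO), 15 of 22 (LPA difference), 29 of 43 and 27 of 42 (LPS in WT and KO) and 24 of 29 (KO against WT with LPA).

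Under library totals, LPS values changed sign because LPS libraries had TMM factors of 0.739 to 0.84 against 1.06 to 1.18 in the others. In WT they were Myh9 -0.25, Myl6 -0.1, Fermt3 -0.41, Arpc1b -0.12, Arpc3 -0.21, Arpc4 -0.13, Coro1a -0.12, Twf1 -0.11, Capg -0.1, Capzb -0.41, Carmil1 -0.49 and Diaph1 -0.26. In KO they were Myh9 -0.21, Myl6 -0.17, Actn1 -0.41, Fermt3 -0.44, Arpc1b -0.13, Arpc3 -0.25, Arpc4 -0.11, Coro1a -0.09, Twf1 -0.07, Capg -0.11, Capzb -0.39 and Diaph1 -0.29. Of these, Carmil1 in WT and Actn1 in KO were not called under TMM but were called lower under library totals. Fscn1, under 3 CPM in KO cells without LPS and in the shallower libraries, had a wide 95% interval for its LPA difference (-2.97 to -0.55).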
